A study of Mus musculus with 56 samples.

Results

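Transcript levels of 36 genes of fatty acid oxidation, chosen by name out of the 17027 genes of a kidney RNA-seq table, were followed over the day in mice fed only by day or only by night. They comprised 7 genes of fatty acid uptake, activation and carnitine transport, 15 genes of mitochondrial beta-oxidation and its electron transfer, 10 peroxisomal genes, and 4 others, many of them known targets of the nuclear receptor PPARA. All 36 were found in the table and passed the filter on low values. Kidneys came from 56 female C57BL/6J mice of 9 weeks, kept in 12 h of light and 12 h of darkness, with 4 mice in each of 14 groups. The column of 1 NRF ZT24 library bears a number that no label has, so it was used as a mouse of that group without a replicate number. The mice had food only in the light phase (daytime-restricted feeding, DRF) or only in the dark phase (nighttime-restricted feeding, NRF, the control) for 7 days. Times are given as ZT, the number of hours since the lights came on, and kidneys were taken at ZT0, ZT4, ZT8, ZT12, ZT16, ZT20 and ZT24. No other treatment or genotype separated the groups. The food window of DRF thus ran from ZT0 to ZT12 and that of NRF from ZT12 to ZT24, so that each regimen's fast filled the other's food window.

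Fatty acids enter the cell through transporters such as CD36, are joined to coenzyme A, and cross into the mitochondrion as carnitine esters. There the acyl-CoA dehydrogenases, hydratases, dehydrogenases and thiolases of beta-oxidation shorten them, and the electron transfer flavoprotein passes on the electrons. Peroxisomes shorten very long and dicarboxylic chains by a related pathway. PPARA is activated by fatty acids, pairs with a retinoid X receptor (RXR) and binds direct repeats of a hexamer, and its targets are known to be induced by fasting in the liver. The proximal tubule of the kidney draws much of its energy from fatty acids.

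Promoter windows of 31 of the members, from 250 bases before to 50 bases after an annotated start, were found in a RefSeq table of the build GRCm38.p6. They were searched on both strands for AGGTCA followed by AGGTCA with 1 base between, the kind of repeat that PPARA and RXR bind, with at most 2 mismatches. The repeat was held by 7 of the 33 windows of these genes, or 21.2%, and by 3.86% of all 32851 windows of the table. The match is a description of letters, with no statement about binding. The 7 stretches are printed because they hold the repeat, which is in capitals, with up to 20 bases on each side, 5′ to 3′ on the strand of the gene.
Acot12, chr13:91741391-91741443, + strand: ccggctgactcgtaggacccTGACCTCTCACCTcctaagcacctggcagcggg
Plin2, chr4:86670252-86670304, - strand: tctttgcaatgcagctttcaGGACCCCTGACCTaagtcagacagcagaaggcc
Cd36, chr5:17835927-17835979, - strand: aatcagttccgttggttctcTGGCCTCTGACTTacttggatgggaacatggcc
Acot4, chr12:84038346-84038398, + strand: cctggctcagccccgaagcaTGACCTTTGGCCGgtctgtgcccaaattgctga
Etfa, chr9:55512288-55512340, - strand: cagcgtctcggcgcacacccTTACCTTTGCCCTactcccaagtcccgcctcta
Echs1, chr7:140116472-140116524, - strand: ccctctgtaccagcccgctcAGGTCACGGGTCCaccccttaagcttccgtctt
Slc25a20, chr9:108662122-108662165, + strand: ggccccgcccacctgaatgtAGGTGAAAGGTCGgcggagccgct
The Acot12 stretch had 1 mismatch and the other 6 had 2. The repeat lay on the strand of the gene in Echs1 and Slc25a20 and on the opposite strand in the other 5. Both strong oscillators and nearly flat genes were among the 7, as their levels below show. Some windows, those of Cd36 and Eci2 among them, lay inside the span of the gene rather than at its outer end. Acaa2, Crat, Decr1, Hsd17b4 and Vnn1 had no window in the table.

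The libraries held 22379268 to 25085800 reads of the genes whose reads could be recovered, and the log2 values of mice of 1 group correlated with a median r of 0.988 across genes, which are not independent. The proximal tubule marker Slc34a1 stood between 2359 and 5093 TPM (a share of all transcripts scaled by gene length, recomputed from recovered reads). The 3 adrenal markers measured summed to 4.54 to 7.48 TPM under NRF and 4.10 to 7.59 TPM under DRF. Most of that sum was Star (4.10 to 7.20 TPM), while Hsd3b1 and Cyp11a1 did not exceed 0.780 and 0.291 TPM. White fat was present in part of the dissections. The 7 white fat markers summed to a median of 57.2 TPM under NRF (20.6 to 3805) and 57.8 TPM under DRF (29.9 to 899), and Adipoq, Plin1, Cfd, Retn and Lep were at 0 in at least 1 library. In 14 of the 56 libraries the sum exceeded 200 TPM, with the highest group means at ZT12 under NRF (1113 TPM) and at ZT20 under DRF (359 TPM). The 4 brown fat markers measured summed to 98.2 to 505 TPM under NRF and 111 to 324 TPM under DRF. Their highest group means fell in the same groups, ZT12 under NRF (223 TPM) and ZT20 under DRF (185 TPM). Ucp1 ranged from 0 to 145 TPM and Cidea from 0 to 200 TPM. The 14 libraries were picked by the white fat sum alone. Adipocytes express several of the genes described here, and results without those 14 libraries are given for part of the counts only. Their omission is also among the alternative analyses under which calls of single genes were lost. The 7 markers of medulla and distal tubule summed to 4751 to 11929 TPM. In whole tissue, fewer cells of a type and less RNA per cell cannot be told apart.

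To determine whether the genes oscillated, a 24-h cosine was fitted to log2(TPM + 1) in each regimen on its 28 mice, and the amplitude below is the height of that cosine above its mean, in log2 units. Under NRF, 29 of the 36 genes oscillated at an adjusted p under 0.05, against 52.8% of the 13651 genes tested. Under DRF, 23 did, against 36.9% of genes tested. Dual-oscillating genes, called under both, numbered 20, against 24.9% of genes tested. The timing was narrow. Concentration of the called peaks, the length of their mean vector on the 24-h circle, was 0.92 under NRF and 0.87 under DRF. Over all genes called it was 0.19 and 0.21. Of the 29 genes called under NRF, 28 peaked between ZT7.5 and ZT13, and of the 23 called under DRF, 21 peaked between ZT19 and ZT24. These windows were set after the peaks were seen, and the share of all genes within them was not counted. The circular mean peak was ZT10.1 under NRF and ZT21.6 under DRF, the last hours of the fast in each regimen. Of the 20 dual-oscillating genes, 19 were phase-inverted, with a shift of at least 8 h (8.52% of all genes tested), and 1 was phase-locked, with a shift of at most 4 h. Among all 3393 dual-oscillating genes of the kidney, 34.3% were phase-inverted and 32.9% phase-locked. Among the 19, the DRF peak followed the NRF peak by 9.11 to 15.2 h, with a median of 11.8 h. Leaving out 1 replicate number of every group brought the DRF count to 15 to 24, the dual-oscillating count to 12 to 21 and the phase-inverted count to 12 to 19, the lowest values being those without replicate 2 (for the last, also without replicate 3). Without the 14 libraries with fat, 25 genes were called under NRF, 19 under DRF and 14 under both, 13 of them phase-inverted.

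**Figure D1:**
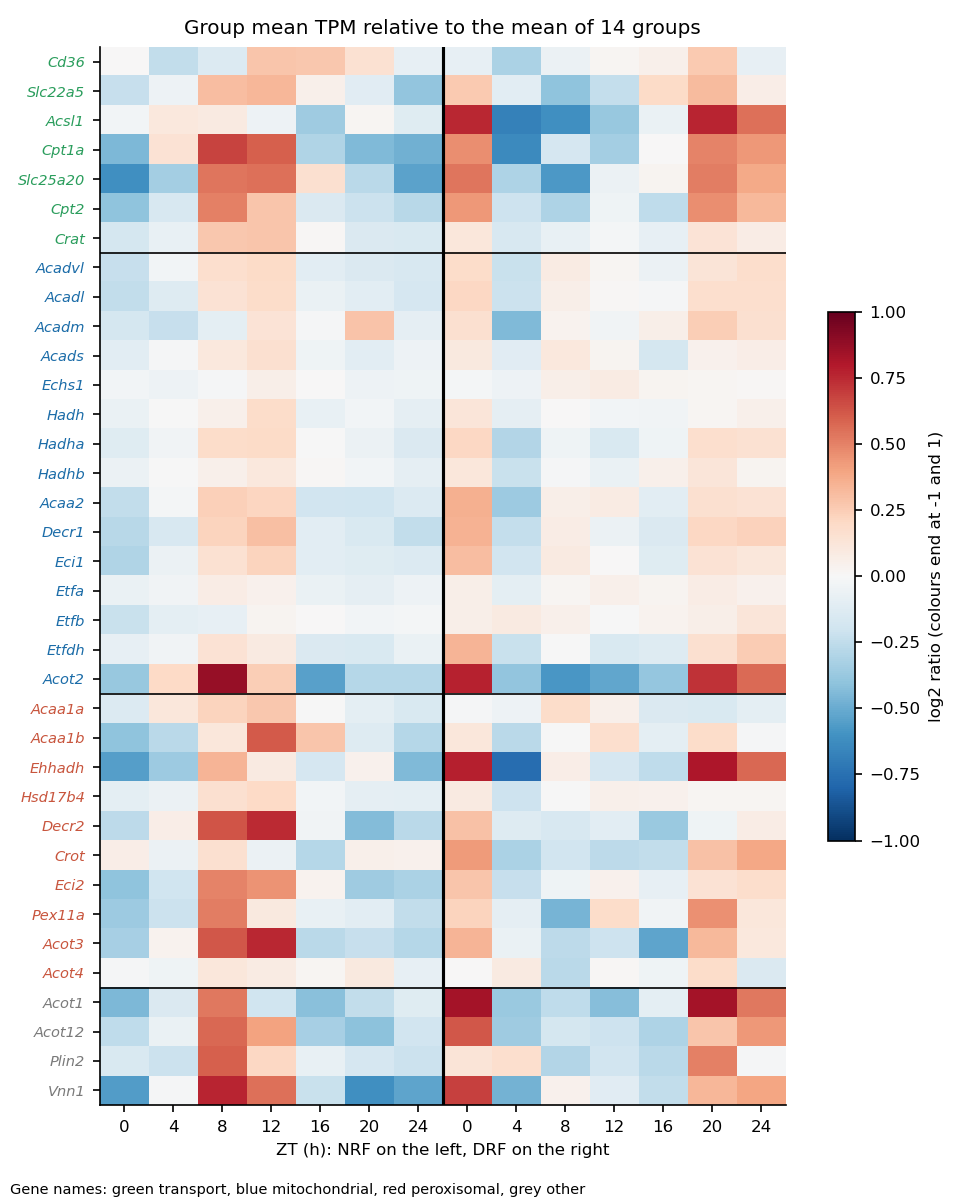
Heatmap of the group mean TPM of each of the 36 genes as the log2 ratio to its own mean over the 14 groups, by ZT in hours, NRF on the left and DRF on the right, 4 mice per group. Most rows are red at ZT8 and ZT12 under NRF and at ZT20, ZT24 and ZT0 under DRF, and 23 of the 36 genes had their lowest DRF mean at ZT4.

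The raw group means showed the same timing without a fitted curve. Under NRF, the highest of the 7 group means fell at ZT8 in 15 genes and at ZT12 in 19. Under DRF it fell at ZT20 in 15 genes, at ZT0 in 17 and at ZT24 in 1. The lowest mean fell at ZT0 or ZT24 in 25 genes under NRF and at ZT4 in 23 genes under DRF. These counts by hour were not made over all genes and were not tested. Summed over the 36 genes, the transcripts made up a median of 1.09% of all TPM, and the sum ranged from 8391 to 14236 TPM over the 56 libraries.

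Genes of uptake, activation and the carnitine shuttle swung widely in both regimens. The ratio of their highest to their lowest group mean had a median of 1.65 under NRF and 1.70 under DRF. The median was 1.26 and 1.34 for the mitochondrial genes, and 1.84 and 1.5 for the peroxisomal genes. Of the 7 transport genes, 6 oscillated under NRF and 6 under DRF, and all 5 that did so under both were phase-inverted.

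Cpt1a (chr19:3322334-3385733) encodes the liver isoform of carnitine palmitoyltransferase of the outer mitochondrial membrane, the regulated entry step of mitochondrial oxidation. Under NRF, Cpt1a stood at 589.8, 657, 671 and 693 TPM at ZT8 and 276, 278, 299 and 319.7 TPM at ZT24. Under DRF, it stood at 560.3, 569, 575 and 598 TPM at ZT20 and 254, 257, 265 and 276 TPM at ZT4. In both regimens every mouse of the high group lay above every mouse of the low group, and the order of the times was turned around. Here and below, the high and low groups were chosen as the highest and lowest group means of these same values. That choice itself favours groups that lie apart, so the separation is a description and no test. It was not counted over all genes. Echs1, with a ratio of 1.08 under NRF, was separated there as well. The amplitude was 0.65 ± 0.044 (SE) under NRF with a peak at ZT9.13 ± 0.263 h (adjusted p = 2.44e-11). Under DRF it was 0.49 ± 0.070 with a peak at ZT20.7 ± 0.539 h (adjusted p = 2.66e-05). The shift was 11.6 ± 0.599 h.

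Slc25a20 (chr9:108662088-108684641), the carnitine-acylcarnitine carrier of the inner membrane, was much less abundant and swung as widely. Its NRF values were 70.4, 75.2, 76.0 and 89.7 TPM at ZT12 and 32.5, 33.9, 35.6 and 37.0 TPM at ZT0. Its DRF values were 72.3, 73.3, 79.4 and 82.8 TPM at ZT0 and 34.4, 35.0, 36.1 and 37.0 TPM at ZT8. High and low groups did not overlap in either regimen. The amplitude was 0.58 ± 0.039 under NRF, peaking at ZT11.5 ± 0.285 h, and 0.52 ± 0.049 under DRF, peaking at ZT20.6 ± 0.353 h (adjusted p = 1.5e-11 and 4.25e-08). Its shift, 9.11 ± 0.454 h, was among the shorter shifts of the phase-inverted genes.

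Cpt2, which turns the carnitine ester back into acyl-CoA inside the mitochondrion, peaked at ZT9.91 ± 0.444 h under NRF and ZT21.7 ± 0.579 h under DRF, with amplitudes of 0.39 ± 0.042 and 0.36 ± 0.052. Slc22a5, the carnitine transporter OCTN2, had amplitudes of 0.33 ± 0.043 and 0.35 ± 0.037 and a shift of 9.35 h. Crat, carnitine acetyltransferase, was phase-inverted as well, with an amplitude of 0.24 ± 0.029 under NRF and 0.11 ± 0.028 under DRF. The DRF call of Crat was lost in 5 of 16 alternative analyses.

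Acsl1, the long-chain acyl-CoA synthetase that activates fatty acids, had a far wider rhythm under DRF. Its DRF values were 359, 386, 417 and 421 TPM at ZT20 and 141, 142, 143 and 158 TPM at ZT4, with no overlap. Under NRF the 4 mice at ZT4, the highest group, stood at 204, 242, 265 and 293 TPM and those at ZT16, the lowest, at 159, 176, 183 and 209 TPM, and these overlapped. The amplitude was 0.77 ± 0.069 under DRF (adjusted p = 1.4e-08), the highest of the 36 genes in that regimen, and 0.16 ± 0.057 under NRF (adjusted p = 0.0585). The rhythm differed between regimens in a joint fit of all 56 mice (interaction F test of limma, adjusted p = 5.24e-10). Cd36, the fatty acid translocase, showed no such difference (adjusted p = 0.888), with fitted peaks at ZT16.3 ± 1.13 h under NRF and ZT16.9 ± 1.29 h under DRF, and its DRF cosine missed the threshold (adjusted p = 0.0892). Its NRF cosine passed (adjusted p = 0.0311) and was lost in 4 of 16 alternatives. The Cd36 level of 303 TPM, the highest of the NRF ZT12 group, belonged to the library with the white fat sum of 3805 TPM. That library was also the highest of its group for Slc25a20 (89.7 TPM) and Decr1 (341 TPM). The same held for Crat, Acadl, Hadha, Hadhb, Eci1 and Etfdh, among others, and not for Cpt1a or Acadm. The part of fat in these levels was not tested.

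**Figure D2:**
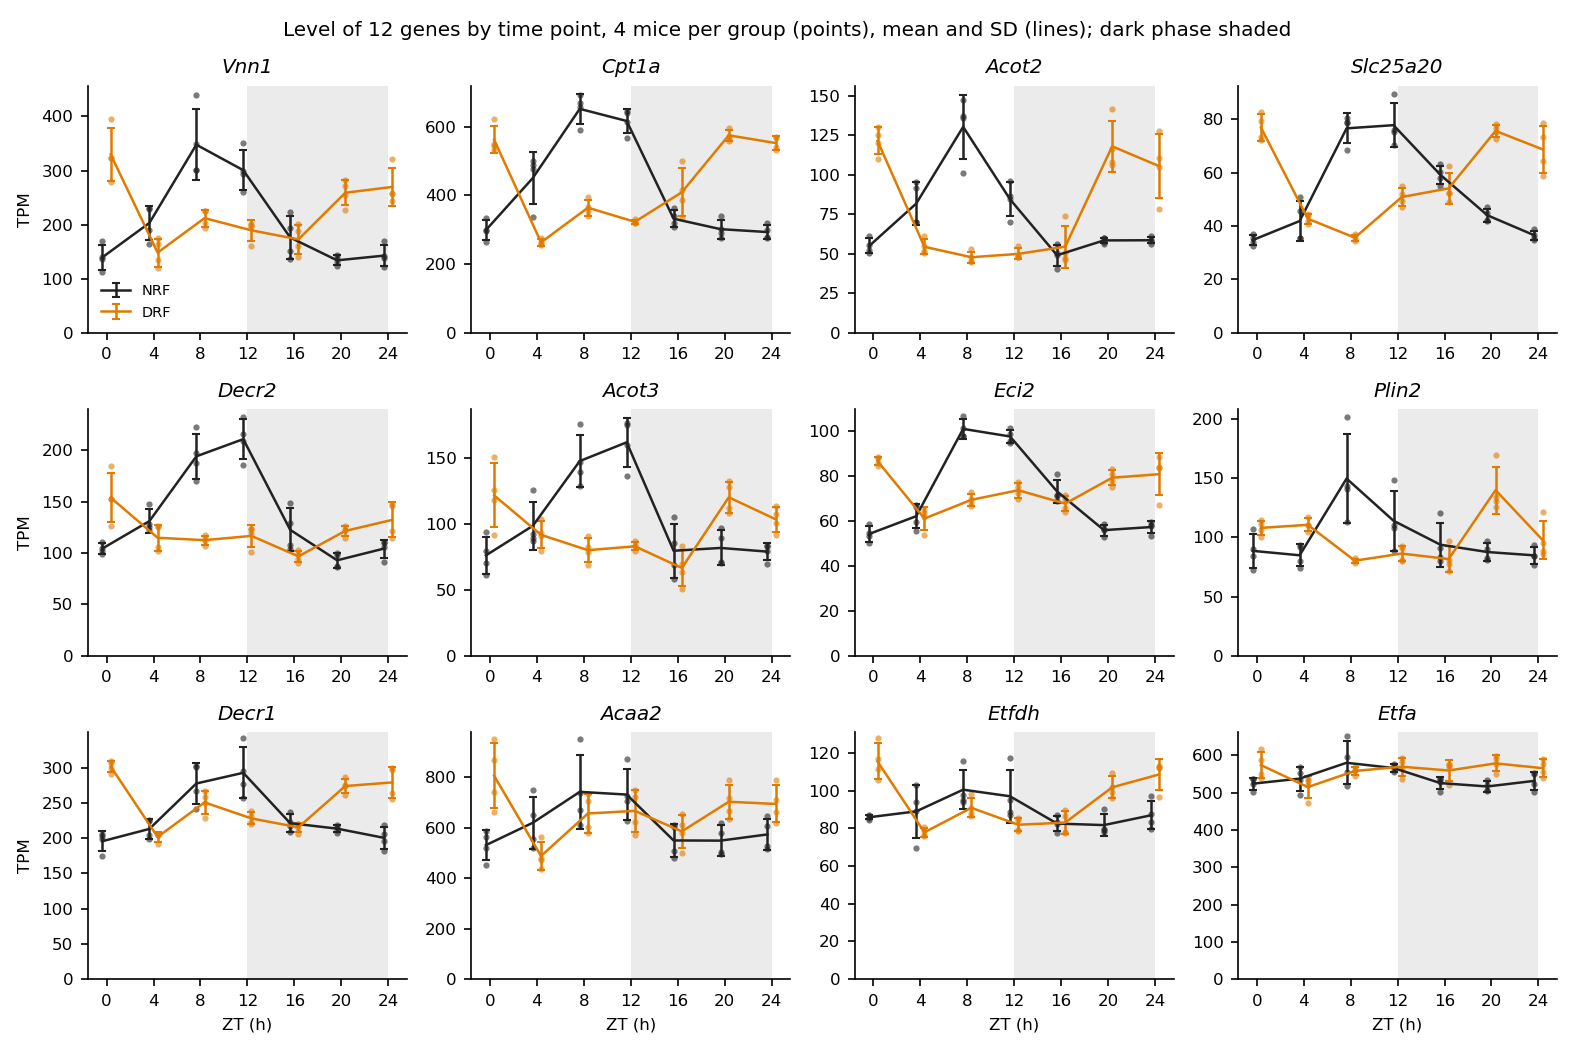
TPM by ZT in hours for 12 genes, the 2 of each of 6 roles with the highest NRF amplitude, 4 mice per group as points with the mean and SD as lines, NRF in black and DRF in orange, dark phase shaded. Cpt1a has means of 653 ± 44.5 TPM (SD) in the NRF group of ZT8 and 575 ± 15.9 TPM in the DRF group of ZT20, while Etfa stays between 471 and 653 TPM in all 56 mice.

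Mitochondrial beta-oxidation genes shared the timing with smaller swings. Of the 15 mitochondrial genes, 11 oscillated under NRF, 6 under DRF and 5 under both, and those 5 were all phase-inverted. The shares of all genes tested were 52.8%, 36.9% and 24.9%, so the DRF count of mitochondrial genes was near the background. Their median amplitude was 0.16 under NRF and 0.11 under DRF, against 0.13 and 0.11 over all genes tested. Decr1, the mitochondrial 2,4-dienoyl-CoA reductase needed for unsaturated chains, stood under NRF at 257, 277, 295 and 341 TPM at ZT12 and 175, 198, 203 and 206 TPM at ZT0. Under DRF it stood at 291, 299, 306 and 309.7 TPM at ZT0 and 192, 204, 205 and 205 TPM at ZT4. The high groups lay clear of the low ones in both regimens. Its amplitude was 0.27 ± 0.033 under NRF (adjusted p = 9.47e-07) and 0.17 ± 0.044 under DRF (adjusted p = 0.0139), and the DRF call was lost in 5 of 16 alternatives.

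Acaa2, the mitochondrial 3-ketoacyl-CoA thiolase, varied more between mice. Its NRF values were 612, 669, 736 and 950.0 TPM at ZT8 and 451, 519.8, 564 and 587 TPM at ZT0. Under DRF they were 662, 741, 868 and 951 TPM at ZT0 and 436, 471, 479.7 and 564 TPM at ZT4. No mouse of the low groups reached the lowest mouse of the high groups. The cosine passed under NRF (amplitude 0.24 ± 0.051, adjusted p = 9.96e-04) and not under DRF (amplitude 0.13 ± 0.068, adjusted p = 0.273), and the difference between the 2 rhythms passed its own test (adjusted p = 0.00152).

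The acyl-CoA dehydrogenases, which take the first step and are named for chain length, did not move alike. Very-long-chain Acadvl had an NRF amplitude of 0.20 ± 0.023 (adjusted p = 1.67e-07) and short-chain Acads one of 0.12 ± 0.029 (adjusted p = 0.00302), and neither cosine passed under DRF (adjusted p = 0.144 and 0.525). Long-chain Acadl passed under both, with a DRF adjusted p of 0.0499 that was lost in 12 of 16 alternatives. Medium-chain Acadm was the most abundant of the 36 genes at a mean of 1184 TPM, and its cosine passed in neither regimen (adjusted p = 0.231 and 0.123). Its mice differed widely within groups, as at ZT20 under NRF, where the 4 values ran from 989 to 1847 TPM.

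Hadha, the alpha subunit of the trifunctional protein, was phase-inverted with amplitudes of 0.16 ± 0.028 and 0.18 ± 0.034. Hadhb, the beta subunit, had a DRF amplitude of 0.12 ± 0.026 (adjusted p = 0.00272) and an NRF adjusted p of 0.0504, just outside the threshold. Eci1, the enoyl-CoA isomerase, and Hadh, the hydroxyacyl-CoA dehydrogenase of shorter chains, passed under NRF alone, with amplitudes of 0.21 ± 0.031 and 0.10 ± 0.032. The call of Hadh was lost in 9 of 16 alternatives. Echs1, the short-chain hydratase, was nearly flat, with amplitudes of 0.040 ± 0.021 and 0.043 ± 0.019 and a ratio of highest to lowest group mean of 1.08 under NRF and 1.10 under DRF.

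The electron transfer flavoprotein subunits were nearly level over the day, and its dehydrogenase was not. Etfdh, which hands the electrons to ubiquinone, stood under NRF at 93.8, 94.8, 97.4 and 116 TPM at ZT8 and 78.1, 78.9, 79.5 and 90.2 TPM at ZT20. Under DRF it stood at 105, 111, 117 and 128 TPM at ZT0 and 75.8, 76.3, 78.5 and 80.8 TPM at ZT4. These did not overlap, and the DRF contrast was the wider. Amplitudes were 0.14 ± 0.038 and 0.21 ± 0.041 (adjusted p = 0.0122 and 0.00126), with peaks at ZT8.27 ± 1.02 h and ZT22.6 ± 0.835 h. The NRF call was lost in 5 of 16 alternatives. Etfa, the alpha subunit of the flavoprotein, had NRF values of 518, 555, 596 and 653 TPM at ZT8 and 505, 506, 521 and 535 TPM at ZT20. The DRF values were 549.6, 577, 590.2 and 598 TPM at ZT20 and 471, 521, 531 and 537 TPM at ZT4. The NRF groups overlapped and the DRF groups did not. Etfa passed under NRF (amplitude 0.076 ± 0.021, adjusted p = 0.0116, lost in 6 of 16 alternatives) and not under DRF (adjusted p = 0.199). Etfb, the beta subunit, passed in neither regimen (adjusted p = 0.155 and 0.522).

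Peroxisomal genes had smaller median amplitudes under DRF (0.16) than under NRF (0.30), with exceptions in both directions. Of the 10, 8 oscillated under NRF, 7 under DRF and 6 under both, of which 5 were phase-inverted. Among the 6, the ratio of DRF to NRF amplitude had a median of 0.602, against 0.883 for the 5 transport genes, 1.12 for the 5 mitochondrial genes and 0.882 for the 3393 dual-oscillating genes of the kidney. These medians are descriptions of a few genes each and were not compared by a test.

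Decr2, the peroxisomal 2,4-dienoyl-CoA reductase, had NRF values of 186, 209, 215 and 232 TPM at ZT12 and 86.0, 87.2, 98.3 and 100.2 TPM at ZT20. Its DRF values were 126, 152, 153 and 185 TPM at ZT0 and 90.6, 94.4, 98.9 and 103 TPM at ZT16. The groups did not overlap within either regimen, and the highest DRF group fell short of the highest NRF group in every mouse. The amplitude was 0.57 ± 0.043 under NRF and 0.18 ± 0.046 under DRF, a ratio of 0.322, with peaks at ZT9.63 ± 0.299 h and ZT0.781 ± 1.07 h. Eci2, the peroxisomal enoyl-CoA isomerase, had NRF values of 97.5, 97.7, 101 and 107 TPM at ZT8 and 50.2, 53.0, 54.7 and 58.6 TPM at ZT0. Under DRF the values were 84.2, 85.4, 87.8 and 88.3 TPM at ZT0 and 53.7, 61.7, 63.6 and 64.8 TPM at ZT4. All 4 mice of each high group exceeded those of the low group. Amplitudes were 0.46 ± 0.030 (adjusted p = 1.02e-11) and 0.14 ± 0.042 (adjusted p = 0.0291), a ratio of 0.299, and the DRF call was lost in 8 of 16 alternatives. In both genes, the DRF cosine departed from the NRF cosine moved by 12 h (adjusted p = 8.61e-07 and 1.15e-06).

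Ehhadh, the bifunctional enzyme of peroxisomal beta-oxidation and a well-known PPARA target, had its wider swing by day feeding. Its DRF values were 1553, 1862, 1997 and 2091 TPM at ZT20 and 567, 625, 628 and 708 TPM at ZT4. The NRF values were 989, 1389.7, 1398 and 1631 TPM at ZT8 and 646, 657, 723 and 897 TPM at ZT0. No groups overlapped within a regimen. The ratio of highest to lowest group mean was 2.97 under DRF, the largest of the 36 genes in that regimen, and 1.85 under NRF, with amplitudes of 0.52 ± 0.12 and 0.30 ± 0.081. Crot, which makes carnitine esters of medium chains for export from the peroxisome, oscillated under DRF (amplitude 0.36 ± 0.059, adjusted p = 1.48e-04) and missed the threshold under NRF (amplitude 0.12 ± 0.054, adjusted p = 0.163), and the rhythms differed (adjusted p = 9.75e-04). Pex11a, a peroxisome division factor, was phase-inverted with nearly equal amplitudes of 0.30 ± 0.049 and 0.31 ± 0.056. Hsd17b4, the D-bifunctional protein, passed under NRF alone (adjusted p = 1.83e-04, and 0.121 under DRF).

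Acaa1a and Acaa1b are near-identical peroxisomal thiolases. Acaa1a was the phase-locked gene of the 36. Its NRF values were 76.4, 82.2, 91.7 and 92.9 TPM at ZT12 and 60.1, 63.8, 65.2 and 67.2 TPM at ZT24. Its DRF values were 72.5, 79.9, 82.4 and 89.1 TPM at ZT8 and 62.3, 63.5, 64.8 and 65.6 TPM at ZT20. Its lowest DRF group, ZT20, was the highest group of 15 other members. It peaked at ZT9.61 ± 0.598 h under NRF and ZT7.9 ± 0.935 h under DRF, a shift of -1.72 ± 1.11 h, and the 2 rhythms did not differ beyond their error (adjusted p = 0.106). Acaa1b oscillated under NRF (amplitude 0.43 ± 0.074, adjusted p = 1.14e-04), and its DRF cosine did not pass (amplitude 0.11 ± 0.085, adjusted p = 0.558). Reads of the 2 genes came out in hundredths of a read, taken as split between genes by the authors' counting, so the separate levels are uncertain.

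**Figure D3:**
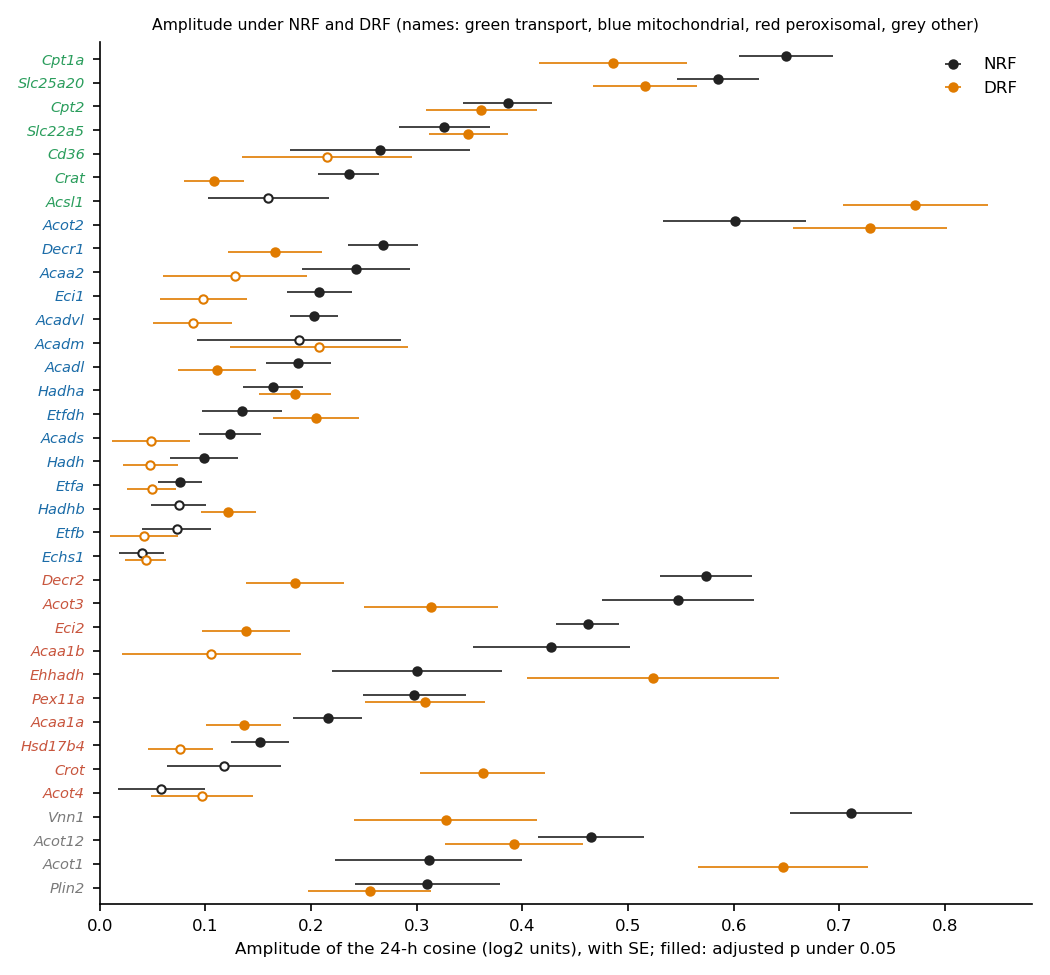
Amplitude of the 24-h cosine in log2 units with its SE for the 36 genes, NRF in black and DRF in orange, filled where the adjusted p was under 0.05, gene names coloured by compartment. In 23 genes the NRF amplitude was the higher of the 2 and in 13 the DRF amplitude, with Acsl1, Crot, Acot1 and Ehhadh farthest to the DRF side and Decr2, Eci2, Vnn1 and Acaa1b to the NRF side.

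Acyl-CoA thioesterases split acyl-CoA back into fatty acid and coenzyme A, and Acot1 to Acot4 are related neighbours on chromosome 12. Acot2 (chr12:83987861-83993873), the mitochondrial form, had NRF values of 101, 136, 137 and 147 TPM at ZT8 and 40.2, 49.2, 50.7 and 55.9 TPM at ZT16. Under DRF the values were 110.2, 120.2, 125 and 130.2 TPM at ZT0 and 44.7, 45.6, 48.1 and 52.7 TPM at ZT8. High and low groups lay apart in both regimens. Amplitudes were 0.60 ± 0.068 and 0.73 ± 0.073 (adjusted p = 1.96e-07 and 1.03e-07), the highest of the 15 mitochondrial genes in both regimens, and the peaks lay at ZT7.81 ± 0.399 h and ZT22 ± 0.407 h. Acot3, a peroxisomal form, had NRF values of 137, 159.8, 175 and 177 TPM at ZT12 and 61.1, 70.7, 79.3 and 94.0 TPM at ZT0. Under DRF it stood at 91.7, 119, 126 and 151 TPM at ZT0 and 50.9, 63.3, 69.4 and 83.4 TPM at ZT16. The groups did not overlap in either regimen, and the DRF amplitude of 0.31 ± 0.063 was below the NRF amplitude of 0.55 ± 0.072.

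Acot1, the cytosolic form, leaned the other way, with 0.65 ± 0.080 under DRF and 0.31 ± 0.088 under NRF, and was phase-inverted with a shift of 13.9 h. Its NRF call was lost in 4 of 15 alternatives. Acot12, a cytosolic acetyl-CoA hydrolase elsewhere in the genome, was phase-inverted with amplitudes of 0.46 ± 0.050 and 0.39 ± 0.065. Acot4, a peroxisomal form, stayed between 30.4 and 41.5 TPM as group means, and its cosine passed in neither regimen (adjusted p = 0.463 and 0.24). Reads of Acot1, Acot2 and Acot3 also came out in hundredths, taken as shared between genes, so differences among these neighbours are uncertain. The reads of Acot4 came out whole.

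Vnn1, a pantetheinase that recycles a part of coenzyme A and is known as a PPARA target, had the highest NRF amplitude of the 36 genes. Its NRF values were 300.4, 301, 349 and 440.0 TPM at ZT8 and 123, 129.8, 138 and 144 TPM at ZT20. Day feeding gave 279, 322, 323 and 396 TPM at ZT0 and 119, 134, 163 and 176 TPM at ZT4. The groups were separate within each regimen, and the highest groups of the 2 regimens overlapped in level. The amplitude was 0.71 ± 0.058 under NRF (adjusted p = 7.31e-10) and 0.33 ± 0.087 under DRF (adjusted p = 0.0134), where the call was lost in 4 of 16 alternatives, among them the one without the libraries with fat. Plin2, a coat protein of lipid droplets, had NRF values of 113, 141, 143 and 202 TPM at ZT8 and 77.0, 83.9, 84.5 and 94.0 TPM at ZT24. Under DRF it stood at 126, 130.4, 134 and 169 TPM at ZT20 and 78.7, 79.7, 80.6 and 82.5 TPM at ZT8. The groups did not overlap, and 1 mouse at ZT8 under NRF was well above the other 3. Amplitudes were 0.31 ± 0.069 and 0.26 ± 0.058 (adjusted p = 0.00162 and 0.0043), with peaks at ZT9.7 ± 0.886 h and ZT22.5 ± 0.953 h.

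**Figure D4:**
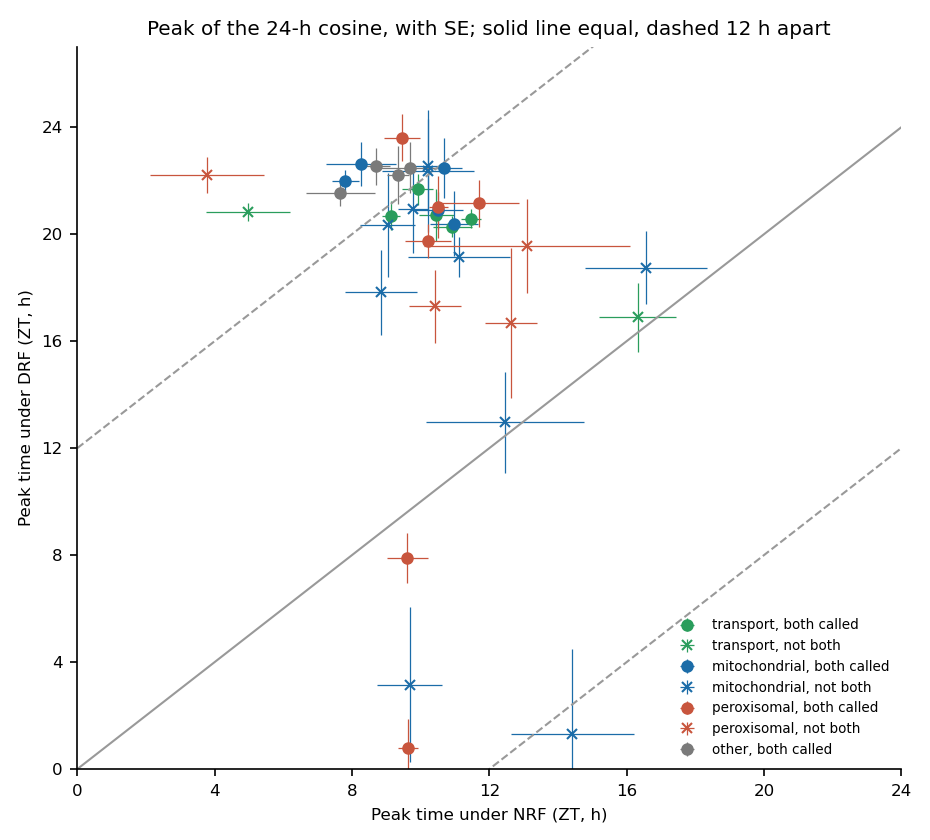
Peak time of the 24-h cosine under DRF against that under NRF, in hours of ZT with SE, circles for the 20 genes called under both regimens and crosses for the other 16. Most circles sit near the dashed line of a 12-h shift between ZT7.5 and ZT13 on the NRF axis, and Acaa1a sits near the solid line of equal times. Decr2 at ZT0.781 on the DRF axis continues the upper group past ZT24, where the scale starts again at ZT0.

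To determine at which hours inverted feeding changed the levels, DRF and NRF were compared at each time point in 1 fit of the 14 groups. At ZT8, 17 genes were lower under DRF and 0 higher, against 10.1% and 7.49% of genes tested. They included Acot2 (-1.42 ± 0.13 log2, SE), Slc25a20 (-1.08 ± 0.084), Pex11a (-0.96 ± 0.081) and 6 of the 7 transport genes, but only 2 of the 15 mitochondrial genes, Hadha and Acot2. At ZT12, 19 were lower and 0 higher, against 13.6% and 7.95%. At ZT20 the sign had turned, with 24 genes higher under DRF and 0 lower, against 10.7% and 8.36%. Acot1 (1.07 ± 0.17), Acot2 (0.99 ± 0.13), Vnn1 (0.94 ± 0.14) and Cpt1a (0.93 ± 0.090) differed most. At ZT24, 20 were higher and 0 lower, against 7.68% and 8.26%. At ZT0, where 20.3% of genes tested differed, 27 were higher and 0 lower, against 8.39% and 11.9%, led by Ehhadh (1.33 ± 0.17), Acot1 (1.30 ± 0.17), Vnn1 (1.24 ± 0.14), Acot2 (1.13 ± 0.13) and Slc25a20 (1.13 ± 0.084), and 11 of the 15 mitochondrial genes were among them.

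The hours between these blocks showed less. At ZT16, where 8.37% of genes tested differed, 1 gene was higher (Cpt1a, 0.29 ± 0.090) and 1 lower (Decr2, -0.32 ± 0.10), against 2.42% and 5.96%, and neither call held without the libraries with fat. At ZT4, 1 was higher (Plin2, 0.38 ± 0.13) and 9 lower, against 9.57% and 21.2%, and with median-of-ratios scaling 4 were lower. That scaling moved the share of all ZT4 calls that were higher under DRF from 31.1% to 56.5%. Acsl1 and Cpt1a had the largest ZT4 differences, -0.77 ± 0.11 and -0.76 ± 0.090. Without the 14 libraries with fat, 9 genes were lower at ZT12 and 17 higher at ZT20, while ZT8 kept its count of 17. The number of mice per group fell with it, and the part of fat in the ZT12 count was not tested. Other scaling kept the directions of the members at ZT0, ZT8, ZT12, ZT20 and ZT24. With median-of-ratios scaling, the members called were 26 higher at ZT0, 13 lower at ZT12 and 2 higher at ZT16, with 0 in the other direction, and the calls of all genes that were higher came to 52.1%, 49.1% and 50.1% in place of 41.3%, 36.9% and 28.9%. At ZT20, 56.2% of all calls were higher, and 43.1% on the deposited values, where 20 members were higher and 0 lower. Cpt1a was higher and Decr2 not called at ZT16 under that scaling.

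In a joint cosine fit, 30 of the 36 genes had a rhythm that differed between regimens, against 46.4% of genes tested. The 6 that did not were Cd36, Acadm, Echs1, Etfb, Acaa1a and Acot4. Between 27 and 31 did so with each replicate number left out.

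To determine whether the members followed the food window, each DRF time was set against the NRF time 12 h later, at which the hours since the start of food access were equal. By the cosine, 17 of 36 genes (47.2%) departed from an exact 12-h inversion, a share near the 44.5% of genes tested. The departing genes were 3 of 15 mitochondrial (Acadm, Echs1 and Acot2), 7 of 10 peroxisomal and 5 of 7 transport genes, with Acot1 and Vnn1 of the other 4. These counts by compartment are small and were not compared by a test. With each replicate number left out in turn, 12 to 16 departed, and 12 did without the libraries with fat. Acadm and Echs1 had no called cosine in either regimen, and their departures were lost in 8 and 7 of 16 alternatives, among them the one without the NRF ZT24 library that has no matching number. Cd36, Acadm, Echs1 and Acaa1a were also among the 6 genes whose rhythms were not shown to differ between regimens. By the cosine no departure was detected for Cpt1a, Cpt2, Plin2 and Decr1 (adjusted p = 0.169, 0.906, 0.791 and 0.277). At single matched hours, Cpt1a did differ after 4 and 8 h of access, Cpt2 after 12 h (0.30 ± 0.066 log2) and Decr1 after 8 h (0.23 ± 0.068) and 12 h (0.20 ± 0.059), and Plin2 at none.

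By time since food access began, 12 genes differed at the start of access, 6 higher under DRF and 6 lower, against 6.14% and 5.45% of genes tested. Acot1 (0.85 ± 0.14), Acsl1 (0.72 ± 0.10) and Ehhadh (0.60 ± 0.15) were higher, and Decr2 (-0.57 ± 0.086), Acaa1b (-0.57 ± 0.19) and Acot3 (-0.53 ± 0.13) lower. Without the libraries with fat, 5 differed. After 4 h of access 7 were lower under DRF and 0 higher, against 8% and 9.31%, Slc25a20 (-0.46 ± 0.084) and Cpt1a (-0.33 ± 0.090) among them. After 8 h, 7 were higher and 4 lower, against 7.56% and 7.76%, with Vnn1 at 0.66 ± 0.14 and Acsl1 at -0.62 ± 0.11, and without the libraries with fat 3 were higher and 2 lower. At the end of access, 9 were higher and 2 lower, against 4.75% and 14.2% (13 and 0 with median-of-ratios scaling, where 44.7% of all calls were higher in place of 25%), with Slc25a20 at 0.50 ± 0.073, Pex11a at 0.48 ± 0.071 and Eci2 at 0.40 ± 0.055, and 4 differed without the libraries with fat. After 4 h of fasting, 1 was higher and 5 lower, against 7.42% and 25.8%, and with median-of-ratios scaling 7 were higher and 3 lower. That scaling moved the share of all calls there that were higher under DRF from 22.4% to 50.7%. After 8 h of fasting, 2 were higher (Acsl1 and Ehhadh) and 5 lower, against 5.88% and 7.49%, and on the deposited values 1 was higher and 3 lower, with 33.7% of all calls higher in place of 44.0%. Without the libraries with fat 1 was higher and 3 lower, and the Ehhadh call was lost in 9 of 15 alternatives. These comparisons use the same mice as those by clock time. The 36 genes were at a median difference of -0.014 log2 at that hour, and of -0.012 at the start of access.

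**Figure D5:**
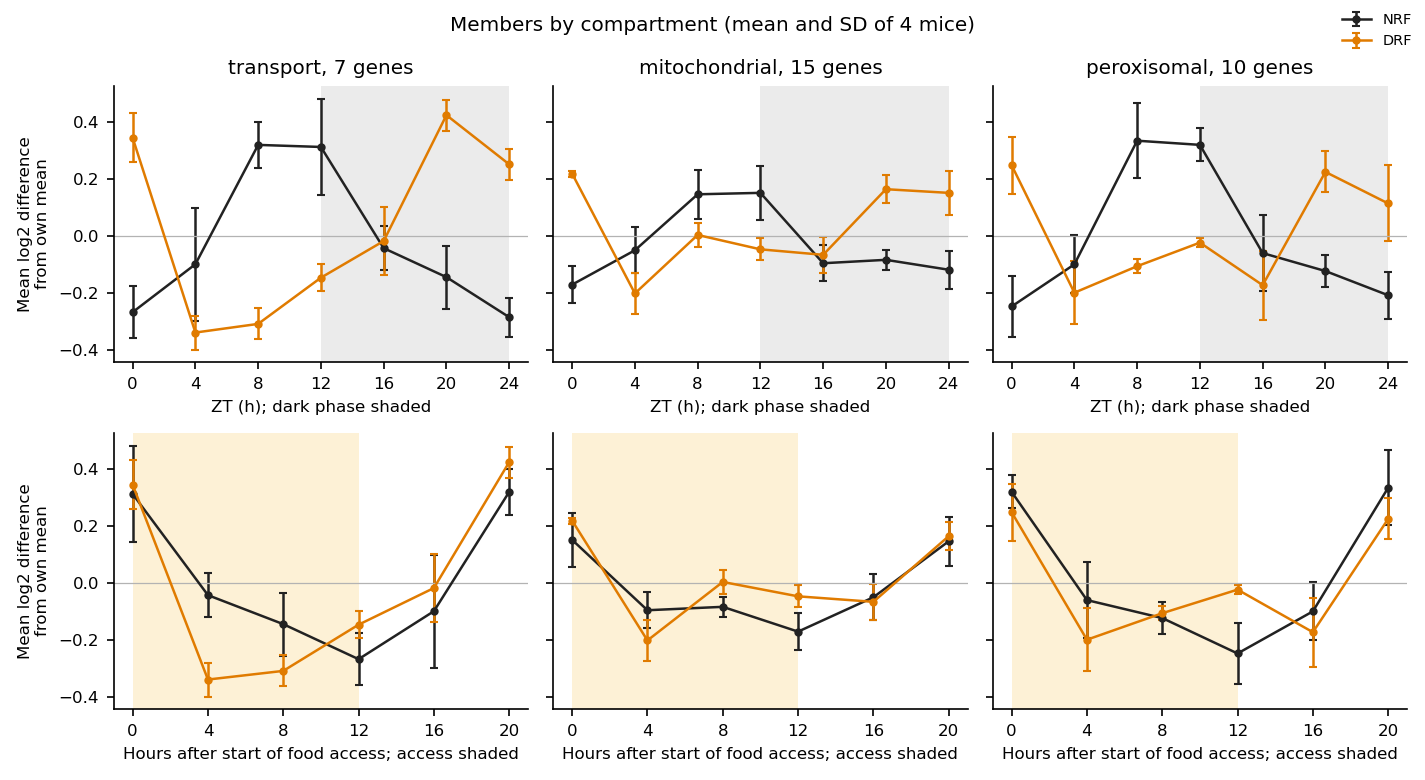
Mean log2 difference of the 7 transport, 15 mitochondrial and 10 peroxisomal genes from their own means, with the SD over 4 mice, against ZT in hours (upper row, dark phase shaded) and against hours after the start of food access (lower row, access shaded, ZT24 left out), NRF in black and DRF in orange. The curves cross by clock time and lie closer by food time, with wide gaps left in the transport genes at 4 and 8 h, where DRF is lower, and in the peroxisomal genes at 12 h, where DRF is higher.

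Under DRF many profiles also departed from a 24-h cosine. Pairs of 12-h terms added to the 24-h cosine were called in 24 of 36 genes under DRF, against 30.5% of genes tested, and in 4 under NRF (Cpt2, Pex11a, Acot2 and Acot12), against 0.798%. The NRF count was 0 without the libraries with fat and 2 with a replicate block, and it was 0 without replicate 2 or replicate 3. The 24 comprised 10 mitochondrial, 6 peroxisomal and 5 transport genes and 3 of the other 4. Their 12-h terms peaked at ZT9.45 to ZT11.3 and again 12 h later, where the later crest fell near the mean DRF peak of ZT21.6. Such terms can also sharpen a single peak, so a call does not show a second rise. Acsl1 was called although its DRF mean rose at each step from ZT4 to ZT20. In 22 genes the DRF mean at ZT8 or ZT12 stood above both ZT4 and ZT16, among them 10 of the 15 mitochondrial, 8 of the 10 peroxisomal and 2 of the 7 transport genes. Acaa2 was at 488 ± 54.1 TPM (SD) at ZT4, 656 ± 76.0 at ZT8 and 585 ± 65.7 at ZT16. Decr1 went from 202 ± 6.44 to 251 ± 16.7 and back to 215 ± 6.27 TPM at the same hours. In Slc25a20 the ZT8 mean, 35.6 ± 1.14 TPM, was instead the lowest of the day. After food access began the means dropped. The DRF mean at ZT4 was below that at ZT0 in 33 of 36 genes, with a median ratio of 0.747, and the NRF mean at ZT16 was below that at ZT12 in all 36, with a median ratio of 0.830. These counts and ratios of means, that of the 22 genes included, were not made over all genes and were not tested.

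The mean level over the day changed little. The mesor, the mean over the 6 clock times, differed between regimens in 4 genes, against 12.9% of genes tested, so that the share was near the background. Etfb (0.10 ± 0.034) and Acot1 (0.19 ± 0.065) were higher under DRF, and Decr2 (-0.22 ± 0.039) and Acot3 (-0.18 ± 0.058) lower. Decr2 was the gene whose call held in every alternative. With median-of-ratios scaling 5 were higher and 1 lower, and among all genes 50.4% of the calls were higher in place of 22.9%. ZT24 and ZT0, the same clock time sampled on either side of the day, differed in 0 genes under NRF, against 0.725%, and in 0 under DRF, against 0%, by limma, and at an unadjusted p under 0.05 in 3 and 4 genes.

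Other genes of the pathway, from lists of related function, were described by counts, to be read against the shares of all genes tested that oscillated under NRF (52.8%), DRF (36.9%) and both (24.9%), and against the 34.3% phase-inverted and 32.9% phase-locked among dual-oscillating genes. The NRF counts of the PPAR, beta-oxidation, peroxisome and CYP4 lists were near that background. Among 14 genes of PPAR receptors, partners and coactivators, 7 oscillated under NRF and 9 under DRF, and of the 6 that did under both, 2 were phase-inverted and 4 phase-locked. Ppard was phase-locked with a shift of -2.05 h and an amplitude of 1.52 under NRF and 0.53 under DRF. Lpin1, a PPARA coactivator and phosphatidate phosphatase, shifted by 0.030 h and Rxrg by 1.36 h. Ppara itself peaked at ZT9.77 under NRF (amplitude 0.59), and its DRF cosine, at 0.19, missed the threshold (adjusted p = 0.0941). Ppara was named after its values were seen.

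Among 26 further beta-oxidation enzymes, 15 oscillated in each regimen and 13 under both, 4 of them phase-inverted and 6 phase-locked. The widest NRF amplitudes among the 13 were those of Nudt19 (phase-locked, shift -0.687 h), Acot7 (between the classes, -4.11 h) and Cpt1b (phase-inverted, 9.20 h). Cpt1b was also on the list of brown fat markers, and the part of fat in its level was not tested. Among 18 acyl-CoA synthetases, transporters and binding proteins, 12 oscillated under NRF and 6 under DRF and under both. Of these 6, 2 were phase-inverted, Slc27a1 (-11.2 h) and Acsl3 (11.6 h), and 3 phase-locked, with Acsm5 (-0.092 h) among the 3. Among 22 peroxisome import and membrane genes, 12 oscillated under NRF, 11 under DRF and 7 under both, of which 4 were phase-inverted and 0 phase-locked, with Pxmp4 (11.5 h) and Abcd3 (10.1 h) among the 4 and Pex16 between the classes (-7.79 h). Among 13 lipid droplet and lipolysis genes, 8, 7 and 5 did, with Plin5 (-10.2 h), Pnpla2 (10.1 h) and Lipe (9.13 h) phase-inverted and 1, Plin3 (1.68 h), phase-locked. Lipe and others of this list are also expressed in adipocytes, and the part of fat in their levels was not tested. Among 9 genes of the fasting fuel switch, 5 were dual-oscillating, and Angptl4, Pdk4 and Ucp2 were phase-inverted with NRF amplitudes of 1.94, 1.01 and 0.27. Of the 7 CYP4 hydroxylases measured, Cyp4a14 was dual-oscillating and phase-inverted (-9.37 h).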

How the data were processed

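Poly(A) RNA of 56 mouse kidneys was sequenced, and per the labels HISAT2, Bowtie2, RSEM and the build GRCm38.p6 (mm10) were used. Versions are not given in the sources used here. The deposited values, named TPM by the authors, are a score rather than TPM. In each sample they follow the log2 of 1 plus a scaled read number, divided by exon length. This form was worked out from the values and stated in no source. It was inverted, which gave reads for 16763 of 17027 genes (98.4%). Whole reads came out for 14560 genes, with 99.9% of their values within 0.05 of a whole read. A gene entered this class only with a share of at least 0.9 of such values, so the figure follows in part from the rule. Reads of the other 2203 genes came out in hundredths, which was taken as reads split between genes. Slc22a5, Acaa1a, Acaa1b, Acot1, Acot2, Acot3 and Plin2 are among the latter and uncertain. Depth was 22379268 to 25085800 such reads per sample.

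TPM were recomputed from these reads, and log2(TPM + 1) of the 13651 genes that averaged 1 TPM or more was fitted with limma 3.58.1 (R 4.3.3, trend), with Benjamini-Hochberg adjustment over all genes and a threshold of 0.05. Fold changes on this scale understate low genes. The study's rhythm tool was not run. Cosines were fitted to the 28 mice of each regimen, and contrasts used 14 groups of 4. The fits were tested on simulated data. Intervals are SE of the fit. Nothing in the labels says more of how mice relate, and the p-values set a fitted effect against the spread between these samples.

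The members and gene lists were chosen with earlier results of these data known. All members are named, with values of each mouse for the 2 per role with the highest NRF amplitude, and 3 genes of each list by NRF amplitude among those called under both. The values of each mouse for Acsl1, Ehhadh and Acaa1a, and Ppara, were added after their values were seen. Alternatives were other scaling (median-of-ratios, the authors' effective library sizes), the deposited values, a pseudocount of 0.1, other filters, a marker covariate, a replicate block, a cosine on TPM and left-out replicates, ZT24 or libraries with fat. The authors' sizes, the omission of libraries with fat and the restriction to genes in whole reads were chosen after seeing the data. Promoter sequences are from RefSeq (GRCm38.p6).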

Additional observations from a re-analysis of the deposited data

Results flagged for a closer look

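Among the 12 genes shown mouse by mouse, 168 group values of 4 mice each were screened for a mouse that lay far from the other 3, by the gap to its neighbour over the range of the group. The screen marked 10, and chance marks about 1 in 20 groups. Low mice were found for Vnn1 under DRF at ZT12 (161 TPM, the others 195 to 202), Cpt1a under NRF at ZT4 (337 TPM, the others 476 to 502) and Slc25a20 under NRF at ZT8 (68.3 TPM, the others 78.6 to 80.5). The low mice of Decr1 under DRF at ZT4 (192 TPM, the others 204 to 205), Etfdh under DRF at ZT24 (96.4 TPM, the others 112 to 113) and Etfa under DRF at ZT16 (519 TPM, the others 568 to 576) lay closer. High mice were found for Acot2 under DRF at ZT16 (74.2 TPM, the others 46.1 to 50.3) and for Acot3 under NRF at ZT4 (126 TPM, the others 87.3 to 92.5). Etfdh had a high mouse under NRF at ZT8 (116 TPM, the others 93.8 to 97.4) and at ZT20 (90.2 TPM, the others 78.1 to 79.5). The Acot3 mouse was that of a library with a white fat sum of 1043 TPM, and the ZT20 Etfdh mouse that of one with 701 TPM, and the part of fat was not tested.

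A rhythm that differed between DRF and NRF by the interaction F test of limma was found in 30 of the 36 genes, against 46.4% of genes tested.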

How the results depend on the processing

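Median-of-ratios scaling shifted all genes of a library by -0.13 to 0.12 on the log2 scale. Of 276 called results of single genes, 170 kept their call under every alternative run, 106 lost it under at least 1, and 0 changed sign. Without the libraries with fat, 9 genes differed at ZT12 in place of 19, 0 at ZT16 in place of 2, 1 in mesor in place of 4 and 0 had a 12-h component under NRF in place of 4. By time since food access, 5 differed at 0 h, 5 at 8 h, 4 at 12 h and 4 at 20 h. On the deposited values, which were scaled otherwise, 5 differed at ZT4, 12 at ZT12, 0 at ZT16 and 4 at 20 h after access began, and 2 had a 12-h component under NRF. Median-of-ratios scaling and the authors' effective sizes each gave 5 at ZT4 in place of 10 and 10 at 16 h after access began in place of 6. The marker covariate gave 17 at 8 h after access began in place of 11. The cause was not tested. Among the 29 members in whole reads, 10 departed from a 12-h inversion, 2 differed in mesor, 7 at 0 h and 3 at 16 h after access began, on fewer members by construction.

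With 1 replicate number left out in turn, the counts ran from 15 to 24 (DRF rhythm), 12 to 21 (both), 12 to 19 (phase-inverted), 1 to 4 (mesor), 0 to 4 (12-h component under NRF), 5 to 11 (ZT4) and 0 to 2 (ZT16). By time since access they ran from 4 to 12 (0 h), 2 to 8 (4 h), 6 to 11 (8 h), 7 to 13 (12 h) and 4 to 7 (20 h). Samples with the same replicate number did not deviate together (mean correlation 0.0099, lowest -0.77), and 14 of the 55 libraries with a number correlated best with their own number, so the numbers are not read as a pairing. A replicate block gave 28 genes under NRF, 22 under DRF, 20 under both and 18 phase-inverted, and 2 with a 12-h component under NRF in place of 4. The fewest reads of a member in a library were 612 (Acot2), and the effect of depth on the calls was not tested.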
